A study of Rattus norvegicus with 8 samples.

Results

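Heat shock protein and DnaJ genes were followed in cultured astrocytes of Sprague Dawley rat pups that had been exposed to melanoma cells. Their members were the entries of the count table whose symbol begins with Hspa, Hspb, Hspd, Hspe or Hsph and a digit, with Hsp90, or with Dnaja, Dnajb or Dnajc and a digit. Of 72 such symbols among 28546 gene entries, 62 had 10 or more counts in at least 3 libraries. These comprised 5 small heat shock genes, 12 genes of the HSP70 and HSP110 families, 2 mitochondrial chaperonin genes, 2 HSP90 genes and 4, 11 and 26 genes of the DnaJ classes A, B and C. All 62 were among the 14445 genes tested. The 10 symbols left out were Hspa1a, Hspa1b, Hsp90aa1, Hspb3, Hspb7, Hspb9, Dnajb7, Dnajb8, Dnajc5b and Dnajc5g, with at most 14 counts in any library.

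The RNA-seq data comprised 8 libraries in 3 groups. In the sh-APP group (n = 3) the 12-273 BM melanoma cells carried a hairpin (labelled shAPPa) against APP, the gene of the amyloid precursor protein. In the anti-Abeta group (n = 3) a scrambled hairpin took its place in the melanoma cells, and antibody against amyloid beta was added. In the control group (n = 2) the melanoma cells carried the scrambled hairpin, and no antibody against amyloid beta is named. The column labels of sh-APP and control libraries both hold the word control where those of anti-Abeta name the antibody. These labels do not say whether it stands for a control antibody or for none. All astrocytes were thus exposed to melanoma cells or their products, and astrocytes never so exposed were not analysed here. The labels call the exposure a co-culture in one place and an incubation of 24 h in melanoma-conditioned medium in another, and a further protocol puts astrocyte medium on the melanoma cells. A single hairpin and a single melanoma line were used. The hairpin acts in the melanoma cells, so its target cannot be checked in the astrocyte RNA. The design text asks how astrocytes respond to melanoma co-culture with and without amyloid beta.

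Total counts ran from 34250464 to 47831595 per library, and the 62 genes held 0.873% to 0.975% of them. Anti-Abeta replicate 2 lay farthest from its group, with a chi-square per degree of freedom of 30.9 and 45.8 in its pairs, against 17.1 to 20.4 for the other pairs within groups. All 10 astrocyte markers were detected, and their summed level was 18450 to 21380 CPM (counts scaled to the same library total, with TMM factors for RNA composition) in sh-APP, 14780 to 16100 CPM in anti-Abeta and 16730 to 17300 CPM in control libraries. That sum held opposite moves, with 7 markers called higher and 1 lower in sh-APP against control. Gfap stood at 5513 to 7180 CPM in sh-APP, 3388 to 3914 CPM in anti-Abeta and 2897 to 2924 CPM in control libraries. Gja1 went the other way, at 1979 to 2297 CPM in sh-APP, 2386 to 3073 CPM in anti-Abeta and 3511 to 3853 CPM in control libraries. The summed level of 7 neuron markers was 151.8 to 163.8 CPM in sh-APP, 223.8 to 289.9 CPM in anti-Abeta and 330.7 to 357.4 CPM in control libraries. That sum was mostly Map2 (97.4 to 108.5 CPM in sh-APP, 153.3 to 207.4 CPM in anti-Abeta and 227.9 to 264.5 CPM in control libraries) and Snap25, and the list did not move one way, with 3 markers called higher and 3 lower in sh-APP against control. Stmn2 stood at 6.88 to 9.43 CPM in sh-APP, at most 1.98 CPM in anti-Abeta and at most 1.61 CPM in control libraries. The part of these markers in the chaperone differences was not tested. Oligodendrocyte lineage markers, mostly Olig2, summed to 522 to 526.5 CPM in sh-APP, 564 to 579.8 CPM in anti-Abeta and 527.2 to 529.2 CPM in control libraries. Pericyte and fibroblast markers summed to 30.3 to 33.0 CPM in sh-APP, 20.8 to 26.2 CPM in anti-Abeta and 18.8 to 22.9 CPM in control libraries. Microglia and macrophage markers summed to at most 1.67 CPM in any library, with Cx3cr1 at 0 in all 8. Melanocyte markers summed to 26.3 to 29.5 CPM in sh-APP, 29.5 to 41.8 CPM in anti-Abeta and 41.5 to 44.0 CPM in control libraries, nearly all of it Mitf. In such bulk RNA, fewer cells of a type and less RNA per cell cannot be told apart.

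Molecular chaperones help other proteins to fold, to stay folded and to be taken apart. HSP70 proteins bind exposed stretches of a client in a cycle of ATP use. DnaJ proteins (also called HSP40) bring clients to HSP70 and start that cycle, and HSP110 proteins end it by exchanging the nucleotide. Small heat shock proteins hold unfolding clients without ATP, HSP90 matures kinases and receptors, and the chaperonin Hspd1 with its lid Hspe1 folds proteins in the mitochondrial matrix. Heat shock factor 1 drives the inducible cytosolic genes through heat shock elements, while the unfolded protein response drives genes of the endoplasmic reticulum (ER). In astrocytes, Hspb1 and Cryab are known as proteins of reactive cells and of Rosenthal fibres.

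Promoter sequence was available for 50 of the 62 genes (RefSeq, build GRCr8, from 250 bases before the start site to 50 after). The windows were searched on both strands for a heat shock element of 3 units, GAANNTTCNNGAA, and for the ER stress element, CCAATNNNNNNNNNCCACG. The heat shock element was found in 5 members (Dnaja1, Hspa8, Hsph1, Hspd1 and Hspe1), beside 267 of 33469 windows in the whole table (0.798%). The ER stress element was found in 3 members (Dnajc3, Hspa5 and Hsp90b1), beside 22 of 33469 windows (0.0657%). A match is a description of the letters and not a shown binding site. Only exact letters were searched, so a window without a match may hold an element that departs from them. Members without a window were not searched. The 250 bases upstream of the start site are printed below, 5′ to 3′ in the direction of the gene, for the genes with the largest changes in each direction (Hspb1 and Dnajb9) and for 4 genes with matches whose levels are set against each other below. Capitals mark the fixed letters of each match.
Hspb1, chr12:26432302-26432551, strand -: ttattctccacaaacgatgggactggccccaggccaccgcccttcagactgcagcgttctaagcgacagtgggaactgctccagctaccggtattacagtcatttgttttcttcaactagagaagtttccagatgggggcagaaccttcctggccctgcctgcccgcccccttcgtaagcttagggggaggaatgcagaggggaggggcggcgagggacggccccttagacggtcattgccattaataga
Hspa8, chr8:50080264-50080513, strand +: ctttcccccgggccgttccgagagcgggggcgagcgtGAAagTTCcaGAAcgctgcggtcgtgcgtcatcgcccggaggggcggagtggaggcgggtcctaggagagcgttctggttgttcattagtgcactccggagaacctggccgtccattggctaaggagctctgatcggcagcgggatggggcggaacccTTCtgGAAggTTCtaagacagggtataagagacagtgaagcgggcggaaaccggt
Hspa5, chr3:38452766-38453015, strand +: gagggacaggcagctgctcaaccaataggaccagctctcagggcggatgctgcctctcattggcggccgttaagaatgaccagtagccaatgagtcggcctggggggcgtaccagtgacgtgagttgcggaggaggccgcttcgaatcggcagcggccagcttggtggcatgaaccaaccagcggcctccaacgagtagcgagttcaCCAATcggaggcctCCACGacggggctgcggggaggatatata
Hspe1, chr9:64084077-64084326, strand +: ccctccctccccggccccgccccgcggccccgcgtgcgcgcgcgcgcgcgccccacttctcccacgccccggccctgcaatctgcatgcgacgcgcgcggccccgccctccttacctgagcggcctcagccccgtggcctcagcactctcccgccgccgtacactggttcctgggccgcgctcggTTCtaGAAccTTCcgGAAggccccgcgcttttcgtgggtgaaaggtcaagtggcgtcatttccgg
Hsp90b1, chr7:23012294-23012543, strand -: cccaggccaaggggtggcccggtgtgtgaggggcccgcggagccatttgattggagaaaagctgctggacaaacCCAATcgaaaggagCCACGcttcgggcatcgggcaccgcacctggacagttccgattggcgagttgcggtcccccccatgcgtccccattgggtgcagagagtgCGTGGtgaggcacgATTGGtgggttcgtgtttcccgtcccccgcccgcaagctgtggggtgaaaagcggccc
Dnajb9, chr6:67002052-67002301, strand -: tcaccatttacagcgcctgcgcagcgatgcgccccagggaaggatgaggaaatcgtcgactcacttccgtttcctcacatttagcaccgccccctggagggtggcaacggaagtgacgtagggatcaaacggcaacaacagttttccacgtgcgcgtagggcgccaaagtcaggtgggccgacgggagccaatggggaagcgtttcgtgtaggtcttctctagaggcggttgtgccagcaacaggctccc
The Hspb1 and Dnajb9 runs hold no match in capitals. Hspa8 has 2 heat shock elements and Hsp90b1 has 2 ER stress elements. Hspe1 and Hspd1 lie head to head on chromosome 9 with 290 bases between their start sites, so the pair of overlapping matches in the Hspe1 run is the pair found for Hspd1 as well.

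Taken over all 62 genes, the summed level was lowest in sh-APP, intermediate in anti-Abeta and highest in control libraries. It averaged 8370 ± 135 CPM in sh-APP (SD, n = 3), 9044 ± 32.5 CPM in anti-Abeta (SD, n = 3) and 10530 ± 420 CPM in control libraries (SD, n = 2), and the groups did not overlap. The families did not move as one. The small heat shock sum was 294.4, 220.7 and 289.7 CPM in sh-APP, 129.6, 119.3 and 144.1 CPM in anti-Abeta, and 117.1 and 110.8 CPM in control libraries. The DnaJ A sum was 934.7, 1017 and 981.3 CPM in sh-APP, 1177, 1271 and 1179 CPM in anti-Abeta, and 1713 and 1598 CPM in control libraries. Small heat shock genes together were therefore highest, and DnaJ A genes lowest, in the sh-APP libraries. The HSP90 sum overlapped among all 3 groups, at 2396 to 2411 CPM in sh-APP, 2306 to 2482 CPM in anti-Abeta and 2410 to 2551 CPM in control libraries. No test was made of these sums.

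**Figure D1:**
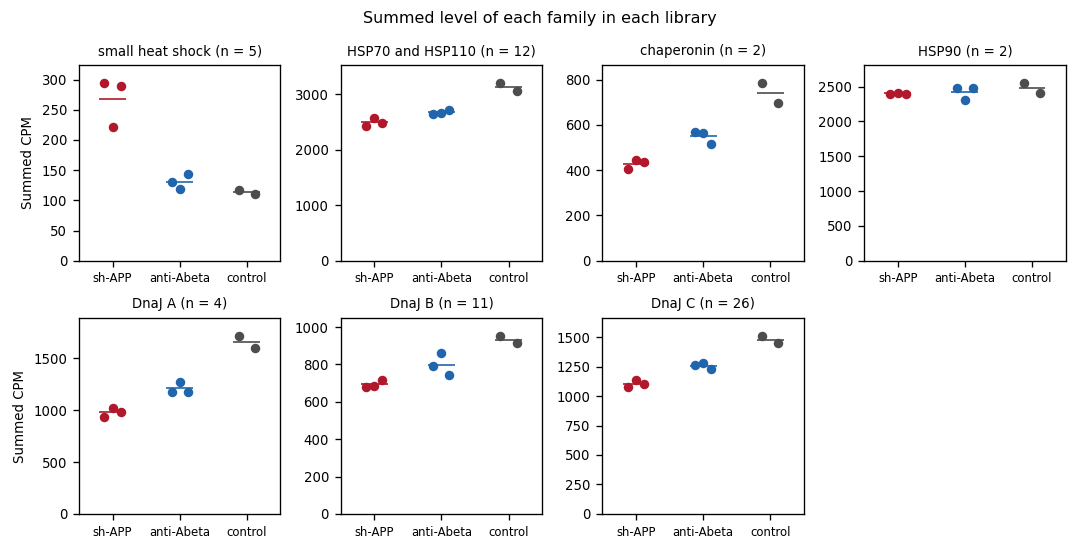
Summed level (vertical axes, CPM after TMM scaling, each from 0) of 7 chaperone families in the sh-APP, anti-Abeta and control libraries; points are single libraries and lines are group means. The small heat shock sum lies between 220.7 and 294.4 CPM in sh-APP libraries, above the other 2 groups, while the DnaJ A, DnaJ B, DnaJ C, chaperonin and HSP70 sums are lowest in sh-APP libraries.

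In sh-APP against control, 15 of the 62 genes were higher, 25 were lower and 22 did not pass the threshold (edgeR's quasi-likelihood test, Benjamini-Hochberg adjusted p under 0.05). That is 64.5% of the members, beside 53.7% of all genes tested, with 25.8% of all genes higher and 27.9% lower. The median log2 fold change was −0.18 over the members and 0.03 over all genes tested. In anti-Abeta against control, 5 members were higher, 21 were lower and 36 did not pass, which is 41.9% called beside a background of 29.2% (12.7% higher and 16.6% lower). Their median was −0.16, beside 0.03 over all genes. In sh-APP against anti-Abeta, 5 members were higher, 14 were lower and 43 did not pass, which is 30.6% called beside a background of 26.1% (10.1% higher and 16.0% lower), with medians of −0.05 over the members and −0.01 over all genes. Both comparisons with control share the same 2 control libraries.

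Scaling and the control libraries bear on these counts. From here on, fold changes are on the log2 scale with ± SE, and a value in brackets after a setting or a left-out library is the adjusted p there. Groups said to be separate or to form steps are described only. Non-overlap in a comparison was part of the rule that picked called members for library values, so it is no added support. Its share over all genes tested is not given. With library totals alone in place of composition factors, the median of all genes moved up by 0.20 (log2) in sh-APP against control and by 0.15 in anti-Abeta against control. The anti-Abeta split of members then became 12 higher and 10 lower, against 5 and 21 above, and that of all genes 3590 higher and 1417 lower, against 1832 and 2391. The sh-APP split of members became 17 higher and 21 lower, and that of all genes 5174 higher and 3091 lower, against 3723 and 4027. Without control replicate 1, 28 of the 40 sh-APP calls passed, and of the 26 anti-Abeta calls only Dnaja1 and Dnaja2 did, with the other 24 at adjusted p from 0.0522 to 0.432. No call of a member changed sign under any alternative run.

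**Figure D2:**
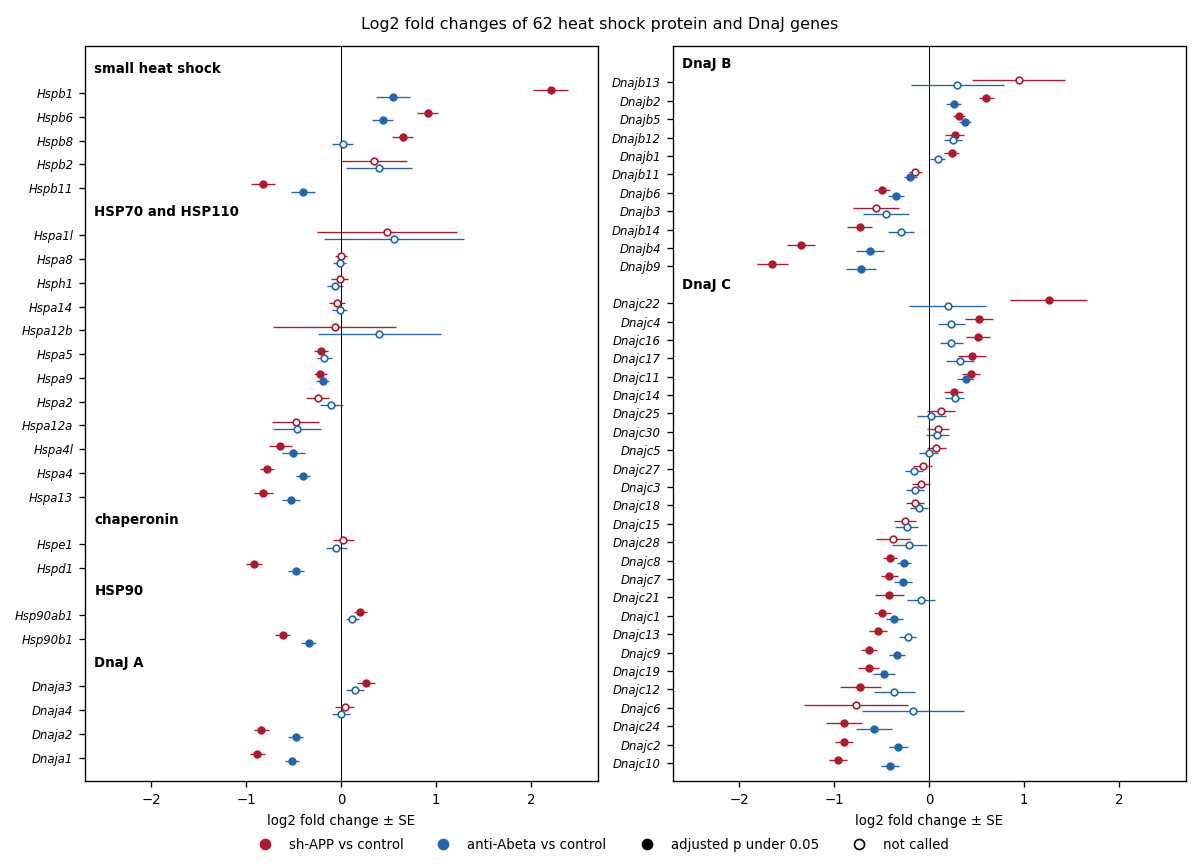
Log2 fold change against control (horizontal axes, ± SE) of the 62 genes by family, in red for sh-APP and blue for anti-Abeta; filled points have an adjusted p under 0.05. Hspb1 stands apart on the right at 2.20 in sh-APP, and Dnajb9 (−1.65) and Dnajb4 (−1.35) lie farthest to the left.

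**Figure D3:**
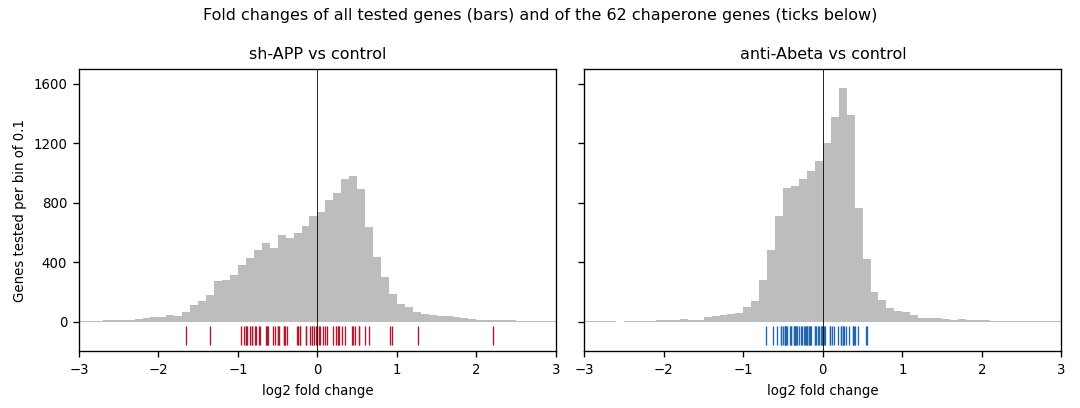
Number of all tested genes (vertical axis) by log2 fold change against control (horizontal axis, bins of 0.1, from −3 to 3) for sh-APP and anti-Abeta, with a tick below for each of the 62 chaperone genes. The ticks span −1.65 to 2.20 in sh-APP and −0.72 to 0.56 in anti-Abeta, within the range of the other genes.

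The small heat shock genes held the largest increase among the 62 genes. Hspb1 (HSP27), which binds unfolding clients and actin filaments, stood at 195.9, 130.0 and 194.3 CPM in sh-APP, 53.8, 46.3 and 64.5 CPM in anti-Abeta, and 40.2 and 35.1 CPM in control libraries. All 3 groups were separate, with sh-APP far above the other 2. Set against control, sh-APP differed by a log2 fold change of 2.20 ± 0.19 (SE) (adjusted p = 4.87e-06) and 1.66 ± 0.16 in sh-APP against anti-Abeta (adjusted p = 0.000165). In anti-Abeta against control it was 0.55 ± 0.18 (adjusted p = 0.0364), and this call was lost without anti-Abeta replicate 1 (0.0672) or 3 (0.122), without control replicate 1 (0.132) or 2 (0.218), with limma-voom (0.0694) and with no low-count filter (0.182).

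Hspb6 (HSP20), a small heat shock protein best known from muscle, and Hspb8, which works with the cochaperone Bag3 in selective autophagy, were higher in sh-APP as well. Hspb6 stood at 37.2, 30.8 and 35.7 CPM in sh-APP, 25.0, 25.5 and 24.2 CPM in anti-Abeta, and 18.7 and 18.1 CPM in control libraries. The groups formed 3 steps without overlap, with log2 fold changes of 0.91 ± 0.11 in sh-APP (adjusted p = 3.14e-05) and 0.44 ± 0.11 in anti-Abeta (adjusted p = 0.0125; 0.0949 and 0.0773 without control replicates 1 and 2) against control. Hspb6 overlaps Lin37 on the chromosome, so reads of the pair may be split. Hspb8 stood at 43.5, 38.7 and 43.3 CPM in sh-APP, 27.4, 24.0 and 29.5 CPM in anti-Abeta, and 26.6 and 26.9 CPM in control libraries. Here only sh-APP stood apart: the log2 fold change was 0.65 ± 0.11 in sh-APP against control (adjusted p = 0.000355) and 0.63 ± 0.10 in sh-APP against anti-Abeta (adjusted p = 0.00121). In anti-Abeta against control it was 0.01 ± 0.11 (adjusted p = 0.943), with a sign that changed under other scaling. Bag3 itself rose by 0.63 ± 0.10 in sh-APP against control (adjusted p = 0.000154) and by 0.38 ± 0.08 in sh-APP against anti-Abeta (adjusted p = 0.00705), picked after its values were seen.

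Hspb11, which carries the family name but is a subunit of the intraflagellar transport complex of cilia, went the other way. It stood at 16.6, 19.5 and 14.7 CPM in sh-APP, 22.2, 21.3 and 24.4 CPM in anti-Abeta, and 30.4 and 29.5 CPM in control libraries. It fell by 0.83 ± 0.13 on the log2 scale in sh-APP (adjusted p = 0.000166) and by 0.41 ± 0.13 in anti-Abeta (adjusted p = 0.0323), the anti-Abeta call being lost without any one of anti-Abeta replicates 1 and 2 and control replicates 1 and 2 (0.0529 to 0.167) and under library totals alone (0.152). Hspb2, which neighbours and overlaps Cryab, had 1.20 to 2.20 CPM across the libraries and passed no test. Cryab, which the symbol rule leaves out, passed no test either. It stood at 42.2, 51.7 and 48.3 CPM in sh-APP, 40.2, 56.5 and 46.2 CPM in anti-Abeta, and 38.6 and 42.7 CPM in control libraries. Its change against control was 0.22 ± 0.14 in sh-APP (adjusted p = 0.193) and 0.23 ± 0.14 in anti-Abeta (adjusted p = 0.225).

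**Figure D4:**
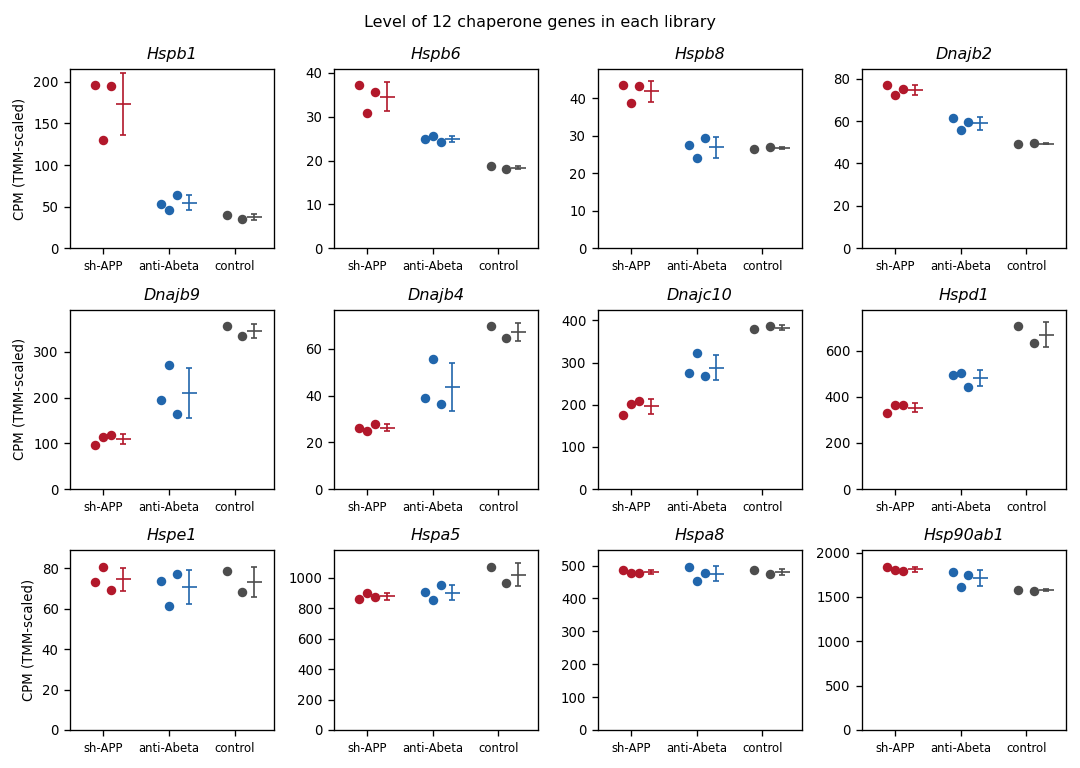
Level (vertical axes, CPM after TMM scaling, each from 0) of 12 chaperone genes in each sh-APP, anti-Abeta and control library, with group mean and SD beside the points. Hspb1, Hspb6, Hspb8 and Dnajb2 are highest in sh-APP libraries, Dnajb9, Dnajb4, Dnajc10 and Hspd1 are lowest there, and Hspe1 and Hspa8 overlap among the groups.

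Of the 12 HSP70 and HSP110 genes, none rose and 5 fell when sh-APP was set against control, and 4 fell in anti-Abeta. That is 41.7% called in sh-APP, beside 53.7% of all genes tested, and 33.3% in anti-Abeta, beside 29.2%. Under library totals alone 1 rose (Hspa8) and 3 fell in sh-APP. Hspa4, an HSP110 protein that exchanges nucleotide on cytosolic HSP70, stood at 350.9, 391.8 and 361.5 CPM in sh-APP, 447.3, 491.6 and 492.5 CPM in anti-Abeta, and 635.4 and 627.8 CPM in control libraries. The groups did not overlap, with changes of −0.78 ± 0.07 (adjusted p = 7.67e-06) in sh-APP and −0.41 ± 0.07 (adjusted p = 0.00376; 0.0522 without control replicate 1) in anti-Abeta. Its relative Hspa4l stood at 154.7, 185.5 and 167.7 CPM in sh-APP, 165.7, 225.1 and 169.1 CPM in anti-Abeta, and 259.9 and 269.4 CPM in control libraries. Here sh-APP and anti-Abeta lay below control and overlapped each other, with changes of −0.64 ± 0.12 in sh-APP (adjusted p = 0.000727) and −0.50 ± 0.12 in anti-Abeta (adjusted p = 0.0110; 0.0800 and 0.0719 without control replicates 1 and 2). The third HSP110 gene, Hsph1, passed no test: it had 96.1 to 109.6 CPM in sh-APP, 93.5 to 108.0 CPM in anti-Abeta and 102.1 to 107.8 CPM in control libraries. Its change of −0.02 ± 0.09 in sh-APP (adjusted p = 0.872) turned to 0.19 under library totals alone.

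Hspa8, the constitutive cytosolic HSP70, overlapped across the groups and passed no test. It stood at 487.1, 477.7 and 477.2 CPM in sh-APP, 496.7, 453.6 and 477.9 CPM in anti-Abeta, and 487.9 and 474.7 CPM in control libraries. The fold change was 0.00 ± 0.07 in sh-APP against control (adjusted p = 0.984) and −0.02 ± 0.07 in anti-Abeta (adjusted p = 0.891), and under library totals alone these were 0.20 (adjusted p = 0.0333) and 0.14 (adjusted p = 0.183). RefSeq names 33 pseudogenes of Hspa8, which could take or give reads. The inducible HSP70 genes were close to undetected, with Hspa1a at 0 counts in all 8 libraries and Hspa1b at 0 to 5. These are near-identical copies of each other, so their counts are uncertain and a count of 0 does not show absence.

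Hspa5 (BiP), the HSP70 of the ER, stood at 859.8, 902.7 and 874.1 CPM in sh-APP, 906.5, 853.6 and 949.8 CPM in anti-Abeta, and 1073 and 969.0 CPM in control libraries. The change was −0.22 ± 0.08 in sh-APP (adjusted p = 0.0273) and −0.18 ± 0.08 in anti-Abeta (adjusted p = 0.0949). The sh-APP call was lost under upper-quartile factors (0.162), library totals alone (−0.01, 0.917), and without sh-APP replicate 1 (0.0862) or 3 (0.0695) or control replicate 1 (0.261). Hspa13, a microsomal HSP70 relative, stood at 78.1, 95.1 and 85.3 CPM in sh-APP, 102.0, 114.7 and 99.5 CPM in anti-Abeta, and 162.3 and 142.0 CPM in control libraries. It lay below control in all 6 libraries of the other groups, by −0.82 ± 0.10 in sh-APP (adjusted p = 3.12e-05) and −0.53 ± 0.10 in anti-Abeta (adjusted p = 0.00401; 0.0689 without control replicate 1). Hspa9 (mortalin), the HSP70 of mitochondria, stood at 259.7, 269.1 and 258.2 CPM in sh-APP, 277.4, 252.6 and 268.9 CPM in anti-Abeta, and 312.0 and 299.0 CPM in control libraries. Its changes of −0.22 ± 0.07 in sh-APP (adjusted p = 0.0172) and −0.20 ± 0.07 in anti-Abeta (adjusted p = 0.0487) were as small as that of Hspa5, and under library totals alone neither passed (0.882 and 0.676). The sh-APP call was also lost without sh-APP replicate 1 (0.0531) or 3 (0.0562) or control replicate 1 (0.117), and the anti-Abeta call was lost without any one of the 8 libraries (0.0585 to 0.210). Hspa14, Hspa2, Hspa12a, Hspa12b and Hspa1l passed no test.

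The chaperonin pair parted. Hspd1 (HSP60), the chaperonin ring, stood at 330.8, 363.2 and 366.5 CPM in sh-APP, 496.1, 503.6 and 440.6 CPM in anti-Abeta, and 706.8 and 630.9 CPM in control libraries. The groups formed 3 separate steps, with changes of −0.92 ± 0.08 in sh-APP (adjusted p = 6.21e-06) and −0.48 ± 0.08 in anti-Abeta (adjusted p = 0.00322; 0.0557 without control replicate 1) against control, and of −0.44 ± 0.08 in sh-APP against anti-Abeta (adjusted p = 0.00202). Hspe1 (HSP10), the lid, which shares the promoter run printed above, stood at 73.4, 80.9 and 69.5 CPM in sh-APP, 73.6, 61.5 and 77.2 CPM in anti-Abeta, and 78.7 and 68.3 CPM in control libraries. Its groups overlapped, at 0.02 ± 0.11 in sh-APP (adjusted p = 0.885; 0.23 under library totals alone) and −0.05 ± 0.11 in anti-Abeta (adjusted p = 0.749; 0.10 under library totals alone).

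The count of Hspd1 over that of Hspe1 within a library does not depend on scaling. It was 4.51, 4.49 and 5.27 in sh-APP, 6.74, 8.19 and 5.71 in anti-Abeta, and 8.98 and 9.24 in control libraries. The groups did not overlap, and the log2 ratio differed by −0.94 in sh-APP minus control and by −0.42 in anti-Abeta minus control (exact two-sided permutation p = 0.2 for each, the smallest that 3 against 2 libraries allow). For sh-APP minus anti-Abeta the difference was −0.52 (exact two-sided permutation p = 0.1, the smallest that 3 against 3 allow). The ratio was picked after the values of both genes were seen. The whole spans of both genes overlap in the annotation, although the start sites used for the promoter windows face away from each other. RefSeq also names 20 pseudogenes of Hspd1 and 1 of Hspe1. The counting could thus have moved reads between Hspd1 and Hspe1.

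The HSP90 genes parted likewise. Hsp90b1 (GRP94), the HSP90 of the ER, stood at 554.4, 607.6 and 606.4 CPM in sh-APP, 704.7, 699.4 and 730.8 CPM in anti-Abeta, and 968.5 and 838.4 CPM in control libraries. It fell in 3 steps without overlap, with changes of −0.62 ± 0.08 in sh-APP (adjusted p = 4.41e-05) and −0.34 ± 0.08 in anti-Abeta (adjusted p = 0.00875; 0.112 without control replicate 1 and 0.0730 under library totals alone) against control. In sh-APP against anti-Abeta the change was −0.27 ± 0.07 (adjusted p = 0.0153), lost without sh-APP replicate 1 (0.0807). The cytosolic Hsp90ab1 stood at 1841, 1803 and 1791 CPM in sh-APP, 1777, 1607 and 1749 CPM in anti-Abeta, and 1583 and 1572 CPM in control libraries. It was 0.20 ± 0.07 higher in sh-APP than in control (adjusted p = 0.0292) and 0.12 ± 0.07 in anti-Abeta (adjusted p = 0.231). The sh-APP call was lost without sh-APP replicate 1 (0.0894) or 3 (0.0587) and without control replicate 1 (0.0845) or 2 (0.0788).

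The within-library count ratio of Hsp90b1 to Hsp90ab1 was 0.301, 0.337 and 0.339 in sh-APP, 0.397, 0.435 and 0.418 in anti-Abeta, and 0.612 and 0.533 in control libraries. Its log2 value differed by −0.81 in sh-APP minus control, by −0.46 in anti-Abeta minus control (exact two-sided permutation p = 0.2 for each) and by −0.36 in sh-APP minus anti-Abeta (exact two-sided permutation p = 0.1), each the smallest p the design allows, and the ratio was picked after the values were seen. Hsp90ab1 has 23 RefSeq pseudogenes. Hsp90aa1, the inducible cytosolic HSP90, had 0 or 1 count in each library. RefSeq names 16 pseudogenes of it, and whether its reads were dropped or assigned elsewhere was not tested.

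In DnaJ class A, Dnaja1 and Dnaja2, which bring clients to cytosolic Hspa8, fell together. Dnaja1 stood at 516.8, 574.3 and 529.7 CPM in sh-APP, 678.5, 734.4 and 670.3 CPM in anti-Abeta, and 1038 and 954.7 CPM in control libraries. Dnaja2 stood at 282.1, 313.8 and 306.7 CPM in sh-APP, 359.1, 409.9 and 389.6 CPM in anti-Abeta, and 555.3 and 523.2 CPM in control libraries. Both formed 3 separate steps. Dnaja1 changed by −0.88 ± 0.08 in sh-APP (adjusted p = 5.14e-06) and −0.52 ± 0.08 in anti-Abeta (adjusted p = 0.00226), and Dnaja2 by −0.84 ± 0.08 (adjusted p = 6.83e-06) and −0.48 ± 0.08 (adjusted p = 0.00264). The mitochondrial Dnaja3 was 0.26 ± 0.09 higher in sh-APP (adjusted p = 0.0303), a call lost without sh-APP replicate 3 (0.106) or control replicate 1 (0.0699) or 2 (0.124), and Dnaja4 passed no test.

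DnaJ class B held the largest decreases. Dnajb9 (ERdj4), an ER protein that binds Hspa5 and takes part in the disposal of misfolded proteins, stood at 97.6, 114.0 and 118.8 CPM in sh-APP, 194.6, 270.9 and 164.9 CPM in anti-Abeta, and 357.0 and 334.8 CPM in control libraries. The groups did not overlap. Its changes were −1.65 ± 0.16 in sh-APP (adjusted p = 8.32e-06), −0.72 ± 0.16 in anti-Abeta (adjusted p = 0.00759) and −0.93 ± 0.15 in sh-APP against anti-Abeta (adjusted p = 0.00135), and the anti-Abeta call was lost with no low-count filter (0.0633) and without control replicate 1 (0.0859). Dnajb4, a cytosolic partner of HSP70, stood at 26.1, 24.9 and 28.0 CPM in sh-APP, 39.2, 55.5 and 36.2 CPM in anti-Abeta, and 69.8 and 64.5 CPM in control libraries. It too stood in 3 steps, at −1.35 ± 0.15 in sh-APP (adjusted p = 1.82e-05) and −0.62 ± 0.15 in anti-Abeta (adjusted p = 0.0106; 0.111 without control replicate 1). In both genes anti-Abeta replicate 2 was the highest of its group. Dnajb14, a membrane protein of the ER, stood at 12.0, 13.3 and 13.9 CPM in sh-APP, 18.3, 19.2 and 15.5 CPM in anti-Abeta, and 19.7 and 23.7 CPM in control libraries. It fell by 0.73 ± 0.14 in sh-APP (adjusted p = 0.000627), and Dnajb6, a suppressor of protein aggregation, by 0.49 ± 0.09 (adjusted p = 0.000387).

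Other class B genes rose. Dnajb2, a J protein of the cytosol and ER surface best known from neurons, stood at 76.9, 72.2 and 75.3 CPM in sh-APP, 61.7, 55.5 and 59.7 CPM in anti-Abeta, and 49.0 and 49.6 CPM in control libraries. It stood in 3 ascending steps, with changes of 0.60 ± 0.08 in sh-APP (adjusted p = 5.87e-05) and 0.26 ± 0.08 in anti-Abeta (adjusted p = 0.0296) against control, the anti-Abeta call being lost without any one of anti-Abeta replicates 1 and 3 and both control replicates (0.0724 to 0.169). Dnajb5 stood at 165.2, 160.2 and 159.1 CPM in sh-APP, 168.5, 168.2 and 170.7 CPM in anti-Abeta, and 128.5 and 131.6 CPM in control libraries. It was higher by a similar amount in both groups, 0.31 ± 0.07 in sh-APP (adjusted p = 0.00155) and 0.38 ± 0.07 in anti-Abeta (adjusted p = 0.00307; 0.0543 without control replicate 1). Dnajb1, the classical inducible HSP40, had 74.8, 74.4 and 81.3 CPM in sh-APP, 72.7, 70.3 and 65.8 CPM in anti-Abeta, and 66.0 and 64.5 CPM in control libraries. Its change of 0.24 ± 0.08 in sh-APP (adjusted p = 0.0239) was lost without sh-APP replicate 3 (0.0906) or control replicate 1 (0.0699) or 2 (0.0910). Dnajb12 rose by 0.27 ± 0.10 in sh-APP (adjusted p = 0.0336), lost without the same 3 libraries (0.127, 0.120 and 0.0885).

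DnaJ class C is the most varied in function, and of its 26 genes 6 rose and 11 fell in sh-APP, while 1 rose and 8 fell in anti-Abeta (4 and 2 under library totals alone). The share called was 65.4% in sh-APP, beside 53.7% of all genes tested, and 34.6% in anti-Abeta, beside 29.2%. Dnajc10 (ERdj5), a reductase that breaks disulfide bonds of proteins bound for disposal, stood at 176.2, 203.0 and 210.1 CPM in sh-APP, 275.4, 322.0 and 267.6 CPM in anti-Abeta, and 378.9 and 387.0 CPM in control libraries. Its 3 groups were separate, at −0.96 ± 0.10 in sh-APP (adjusted p = 9.03e-06) and −0.41 ± 0.10 in anti-Abeta (adjusted p = 0.00945; 0.0739 and 0.0584 without control replicates 1 and 2). Dnajc2, which sits on the ribosome with Hspa14 and receives new chains, stood at 28.5, 31.2 and 30.1 CPM in sh-APP, 47.8, 45.5 and 40.2 CPM in anti-Abeta, and 58.1 and 53.4 CPM in control libraries. It changed by −0.90 ± 0.10 in sh-APP (adjusted p = 1.58e-05) and −0.33 ± 0.10 in anti-Abeta (adjusted p = 0.0266; 0.0552 to 0.187 without any one of anti-Abeta replicate 3 and both control replicates, and 0.192 under library totals alone), whereas its partner Hspa14 had 57.5 to 66.3 CPM in sh-APP, 62.5 to 64.7 CPM in anti-Abeta and 63.4 to 65.9 CPM in control libraries. Dnajc24, an enzyme cofactor in the diphthamide modification of an elongation factor, stood at 7.48, 11.5 and 8.31 CPM in sh-APP, 12.9, 9.79 and 11.3 CPM in anti-Abeta, and 18.7 and 15.1 CPM in control libraries. Both groups overlapped each other below control, at −0.89 ± 0.19 in sh-APP (adjusted p = 0.00167) and −0.58 ± 0.19 in anti-Abeta (adjusted p = 0.0392; 0.0594 to 0.277 without any one of anti-Abeta replicates 2 and 3 and control replicates 1 and 2).

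Class C genes with other tasks fell by less in sh-APP. The change was −0.64 ± 0.11 for Dnajc19, of the mitochondrial import motor, −0.63 ± 0.09 for Dnajc9, a histone chaperone, −0.54 ± 0.09 for Dnajc13, of endosomes, −0.50 ± 0.09 for the ER protein Dnajc1 and −0.41 ± 0.08 for Dnajc8, of the spliceosome. All 5 passed, with the largest adjusted p 0.000629. Dnajc7, Dnajc12 and Dnajc21 also fell, and each of these calls was lost without control replicate 1 (0.0611, 0.0756 and 0.389), that of Dnajc12 also without control replicate 2 (0.0563) and that of Dnajc21 without sh-APP replicate 1 (0.0719) or 3 (0.0819). Dnajc19 overlaps Fxr1, Dnajc9 overlaps Fam149b1 and Dnajc7 overlaps Nkiras2, and the strand setting of the counting is unknown.

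Of the class C genes that rose, Dnajc11, which helps to organise the inner mitochondrial membrane, did so in both groups. It stood at 101.1, 98.3 and 94.3 CPM in sh-APP, 105.7, 86.4 and 90.3 CPM in anti-Abeta, and 70.7 and 73.6 CPM in control libraries, with changes of 0.44 ± 0.09 (adjusted p = 0.00144) in sh-APP and 0.38 ± 0.09 (adjusted p = 0.0107; 0.107 without control replicate 1) in anti-Abeta. Dnajc16, which overlaps Agmat, had 20.1, 18.9 and 23.4 CPM in sh-APP, 17.8, 17.1 and 16.3 CPM in anti-Abeta, and 14.3 and 14.7 CPM in control libraries. Dnajc4 had 16.7, 16.2 and 12.8 CPM in sh-APP, 13.0, 12.5 and 11.8 CPM in anti-Abeta, and 10.6 and 10.6 CPM in control libraries. Against control both rose by 0.52 in sh-APP (adjusted p = 0.00363 for Dnajc16 and 0.00812 for Dnajc4) and neither passed in anti-Abeta (0.178 and 0.244). Dnajc22 rose by 1.26 ± 0.41 in sh-APP (adjusted p = 0.0197; 0.143 without control replicate 1), with low levels of 1.74 to 1.89 CPM in sh-APP, 0.54 to 1.12 CPM in anti-Abeta and 0.58 to 0.92 CPM in control libraries. Dnajc14 (0.26 ± 0.10, adjusted p = 0.0420) and Dnajc17 (0.45 ± 0.15, adjusted p = 0.0205) also rose in sh-APP. Both calls were lost without sh-APP replicate 3 (0.127 and 0.0542). That of Dnajc14 was also lost with RLE size factors (0.0527) and with no low-count filter (0.0633), among other settings. Dnajc5, the cysteine string protein of synaptic vesicles, passed no test.

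Sorted by compartment instead of family, more ER members fell than rose against control. Of 11 ER members, 7 fell in sh-APP (Hspa5, Hspa13, Hsp90b1, Dnajb9, Dnajb14, Dnajc1 and Dnajc10), Dnajb12 rose and 3 did not pass, with a median log2 fold change of −0.50, beside 27.9% lower and 25.8% higher over all genes tested. In anti-Abeta 6 fell (Hspa13, Hsp90b1, Dnajb9, Dnajb11, Dnajc1 and Dnajc10) and none rose. The median was −0.30, beside 16.6% lower and 12.7% higher over all genes. Dnajb11 (−0.20 ± 0.07 in anti-Abeta, adjusted p = 0.0447) did not pass in sh-APP (adjusted p = 0.0880). Its anti-Abeta call was lost in the non-robust fit (0.0508), with only the 2 groups compared (0.0971) and under library totals alone (0.660), among other settings. None of the 6 passed without control replicate 1, and under library totals alone 3 ER members fell and 1 (Dnajb12) rose in anti-Abeta. Dnajc3 (p58IPK), which holds unfolded clients in the ER and binds the eIF2-alpha kinases, was not among them, at 51.9 to 57.5 CPM in sh-APP, 46.0 to 56.5 CPM in anti-Abeta and 57.0 to 59.7 CPM in control libraries (−0.09 ± 0.10 in sh-APP, adjusted p = 0.485; 0.12 under library totals alone). Of the 3 genes with an ER stress element, the changes in sh-APP were thus −0.09 for Dnajc3, −0.22 for Hspa5 and −0.62 for Hsp90b1.

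Of 8 mitochondrial members, Hspd1, Hspa9 and Dnajc19 fell and Dnaja3 and Dnajc11 rose in sh-APP, with a median of −0.10. That is 62.5% called, beside 53.7% of all genes tested. A list of 11 cytosolic genes drawn up as heat-inducible also held Hspa8, called constitutive above, and Hsp90ab1, a relative of the inducible Hsp90aa1. Its counts therefore do not describe inducible genes alone. Of the 11, 8 passed the count rule, and 3 of these rose in sh-APP (Hspb1, Hsp90ab1 and Dnajb1). A further 3 fell (Dnaja1, Dnajb4 and Hspa4l) and 2 did not pass (Hspa8 and Hsph1), with a median of −0.01 over the 8. Of these 8 genes 75% were called, beside 53.7% of all genes tested. The calls of Hsp90ab1 and Dnajb1 were lost as given above. Among the 5 genes with an exact match to the heat shock element, Dnaja1 and Hspd1 fell in sh-APP while Hspa8, Hsph1 and Hspe1 did not pass. Genes without a match were not shown to lack an element. Over the promoter windows, the median GC content was 63.7% for members that rose in sh-APP, 62.7% for those that fell and 61.7% for those that did not pass, with overlapping ranges.

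The genes that work with the chaperones also went both ways. The list of heat shock factors and cochaperones also held Cryab and Serpinh1, which are neither, and its counts include them. Of 24 heat shock factors and cochaperones tested, 11 rose and 9 fell in sh-APP, and 6 rose and 7 fell in anti-Abeta (0 and 2 without control replicate 1, 12 and 5 under library totals alone). Of the 24, 83.3% were called in sh-APP, beside 53.7% of all genes tested, and 54.2% in anti-Abeta, beside 29.2%. Hsf2, a heat shock factor, fell by 1.52 ± 0.11 in sh-APP (adjusted p = 4.08e-06) and by 0.68 ± 0.11 in anti-Abeta (adjusted p = 0.00253). Ptges3 (p23), an HSP90 cochaperone, fell by 1.51 ± 0.12 in sh-APP (adjusted p = 4.08e-06) and by 0.77 ± 0.12 in anti-Abeta (adjusted p = 0.00226). The HSP90 partners Sugt1 (−1.19 ± 0.12) and Ppid (−1.10 ± 0.11) fell in sh-APP as well. Hsf1, the main factor of the heat shock response, was instead 0.62 ± 0.11 higher in sh-APP (adjusted p = 0.000436) and 0.40 ± 0.11 higher in anti-Abeta (adjusted p = 0.0171; 0.177 without control replicate 1 and 0.0563 without anti-Abeta replicate 3), and Serpinh1 (HSP47), a collagen chaperone of the ER, was 0.70 ± 0.11 higher in sh-APP (adjusted p = 0.000153). The choice of these last 2 was made with their values known.

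Of 14 subunits of the cytosolic chaperonin TRiC and of prefoldin, 2 rose and 7 fell in sh-APP, and 1 rose and 5 fell in anti-Abeta. That is 64.3% called in sh-APP, beside 53.7% of all genes tested, and 42.9% in anti-Abeta, beside 29.2%. Under library totals alone 5 rose in sh-APP, and 3 rose and 2 fell in anti-Abeta. The TRiC subunits Tcp1 (−0.84 ± 0.09), Cct8 (−0.86 ± 0.10), Cct6a (−0.69 ± 0.07) and Cct4 (−0.62 ± 0.07) fell in sh-APP, and the same 4 fell by 0.58, 0.51, 0.33 and 0.28 in anti-Abeta, of which only Tcp1 passed without control replicate 1. Of 7 mitochondrial partners, the protease subunit Clpp (0.61 ± 0.08) and the protease Lonp1 (0.48 ± 0.09) rose in sh-APP, while Clpx (−0.49 ± 0.07), which unfolds proteins for Clpp, and the iron-sulfur cochaperone Hscb (−0.80 ± 0.15) fell. In all 4 rose and 3 fell there, so 100% of these 7 genes were called, beside 53.7% of all genes tested.

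Of 23 other genes of ER folding and the unfolded protein response, 5 rose, 4 fell and 14 did not pass in sh-APP, and 2 rose, 3 fell and 18 did not pass in anti-Abeta. The share called, 39.1% in sh-APP and 21.7% in anti-Abeta, was below that of all genes tested (53.7% and 29.2%). Under library totals alone 13 rose in sh-APP and 8 in anti-Abeta. Canx (calnexin) and Pdia3, which fold glycoproteins together, fell by 1.16 ± 0.12 (adjusted p = 1.33e-05) and 0.84 ± 0.09 (adjusted p = 1.25e-05) in sh-APP. Hyou1, the HSP110 relative of the ER, and P4hb, a disulfide isomerase, each rose by 0.42 ± 0.07 (adjusted p = 0.000442 and 0.000476). The stress-response factors Xbp1 (0.14 ± 0.08, adjusted p = 0.126), Atf4 (−0.04 ± 0.09, adjusted p = 0.719; 0.16 under library totals alone) and Ddit3 (0.24 ± 0.17, adjusted p = 0.242) did not pass in sh-APP against control, and were picked after their values were seen.

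The direct comparison of sh-APP with anti-Abeta tested where the 2 groups differed. The 5 genes higher in sh-APP were Hspb1, Hspb8, Hspb6, Dnajb2 and Dnajc22. The 14 lower in sh-APP were led by Dnajb9, Dnajb4, Dnajc2 (−0.57 ± 0.09, adjusted p = 0.00128), Dnajc10 (−0.55 ± 0.09, adjusted p = 0.00133), Hspd1 and Dnajb14 (−0.43 ± 0.12, adjusted p = 0.0220). The Dnajb14 call was lost without sh-APP replicate 1 (0.0863) or anti-Abeta replicate 1 (0.0594) or 2 (0.0905), and that of Dnajc22 without any single sh-APP library or without anti-Abeta replicate 1 or 2 (0.0720 to 0.123). Dnaja1, Dnaja2 and Hspa4 were lower by 0.36 ± 0.07, 0.36 ± 0.07 and 0.38 ± 0.07, while Dnajb5 (−0.07 ± 0.06, adjusted p = 0.446) and Dnajc11 (0.06 ± 0.08, adjusted p = 0.652) did not pass. Without sh-APP replicate 1, 8 members were called lower in place of 14.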

How the data were processed

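RNA-seq counts of 8 libraries of rat astrocytes were analysed. The deposited values are raw counts for each gene symbol. The submitters' processing notes name HTSeq 0.11.1, STAR 2.6.0a, DESeq2 1.24.0, Trimmomatic 0.36, SAMtools 1.9 and FastQC 0.11.7, with build rn6; settings, annotation and strandedness: not given in the sources used here. Total counts per library ran from 34250464 to 47831595. Chi-square per degree of freedom within groups was 17.1 to 45.8, so over the tested genes together the spread between libraries exceeded counting error. This need not hold for members at low levels, such as Hspa1l at a mean of 0.22 CPM.

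A single edgeR 4.0.16 fit (R 4.3.3) took in all 8 libraries, modelled by group alone, which left 5 residual degrees of freedom. The filter was filterByExpr (minimum count 10, minimum total 15), and scaling was by TMM factors. Contrasts were tested with edgeR's robust quasi-likelihood test, with Benjamini-Hochberg adjustment over the 14445 genes tested and a threshold of 0.05. Every adjusted p in the text is from this test unless another tool is named, and a p given in brackets after a setting is the adjusted p under that setting. SE is the size of the log2 fold change over the square root of F. Levels are CPM after TMM scaling, not corrected for transcript length, so levels of different genes are not compared. Whether the libraries of a group are separate cultures is not in the labels, so a p-value speaks of the spread between these libraries only, which may be technical. Ratios were compared with exact permutation tests (SciPy 1.17.1). The fit was checked on simulated data.

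The members and gene lists were chosen with earlier results of these data known. Library values are given for up to 6 called members per direction and contrast with the largest change, a mean of at least 5 CPM and groups that do not overlap, for the member of each family with the most counts and for a fixed set, and for others picked after their values were seen (Dnaja2, Hspa4, Hspb11). Of the other lists, up to 4 called genes per comparison with control were named by smallest p. Pseudogenes, overlaps and promoters come from RefSeq tables of GRCr8, which matched 61 of the 62 members by symbol; 32 of them overlap another gene and 17 have a named pseudogene, and only part of these are marked in the text. Alternatives were DESeq2 1.42.0, limma-voom (limma 3.58.1), other scaling factors, other filters, a non-robust fit, fits without the third group, a replicate block and leaving out each library.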

Additional observations from a re-analysis of the deposited data

How the results depend on the processing

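All 3 comparisons share the 5 residual degrees of freedom of one fit, and each comparison with control rests on a mean of only 2 control libraries. In the sh-APP comparison with control, DESeq2 and limma-voom each kept all 40 calls of members, and library totals alone kept 36. In the anti-Abeta comparison with control, library totals alone kept 15 of 26 calls and leaving out control replicate 1 kept 2. In sh-APP against anti-Abeta, all 19 calls were kept under every alternative that used all libraries of the groups compared. No called member changed sign.

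Under library totals alone the anti-Abeta comparison gave 3590 genes higher and 1417 lower (1832 and 2391 as reported) and 12 members higher and 10 lower (5 and 21 as reported).

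Leaving out each of the 8 libraries in turn, members higher in sh-APP against control numbered 8 to 15. For anti-Abeta against control, 54 to 1976 genes were higher and 385 to 2799 lower, with 0 to 6 members higher and 2 to 19 lower. For sh-APP against anti-Abeta, 744 to 1477 genes were higher and 1489 to 2219 lower, with 8 to 16 members lower. Without control replicate 1 the lone control library is assumed to vary like the other groups.

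The labels number the libraries alike in each group but do not say that a number marks a shared culture, so the numbers were not taken as pairs. Deviations of same-numbered libraries correlated at −0.01 to 0.11, and those of differently numbered libraries at −0.108 to 0.026. The highest were sh-APP with anti-Abeta replicate 1 (0.105) and replicate 2 (0.098). Whether the numbers mark pairs was not tested. With the replicate block, 11 members were higher and 26 lower in sh-APP against control, 4 and 14 in anti-Abeta against control, and 5 and 14 in sh-APP against anti-Abeta.

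Sign changes were searched for genes named by rule, for called genes of the lists and for Xbp1, Atf4 and Ddit3, and not for every member. The log2 fold changes found to turn sign had not passed the threshold as reported in the comparison named, though some of these genes passed in another. The cause was not tested. Under library totals alone these were, in sh-APP against control, 0.12 for Dnajc3, 0.203 for Hspa8, 0.185 for Hsph1 and 0.163 for Atf4, in anti-Abeta against control 0.001 for Dnajc3, 0.136 for Hspa8, 0.10 for Hspe1 and 0.089 for Hsph1, and in sh-APP against anti-Abeta 0.013 for Hspa5 and 0.031 for Hspa9. Under upper-quartile factors they were 0.083 for Hspa8, 0.066 for Hsph1 and 0.042 for Atf4 in sh-APP against control, 0.033 for Hspa8 in anti-Abeta against control and 0.015 for Hspa9 in sh-APP against anti-Abeta. Hspa8 was at 0.005 in sh-APP with only the 2 groups compared. Hspb8 in anti-Abeta against control was at 0.00 with DESeq2, −0.003 with RLE size factors and −0.04 with the replicate block. With each library left out in turn, sh-APP against control ranged from −0.011 to 0.025 for Hspa8, −0.062 to 0.135 for Hspe1, −0.06 to 0.033 for Hsph1 and −0.129 to 0.075 for Atf4. Anti-Abeta against control ranged from −0.048 to 0.004 for Hspa8, −0.058 to 0.078 for Hspb8 and −0.156 to 0.041 for Hspe1. For sh-APP against anti-Abeta the range was −0.001 to 0.121 for Dnajc3, −0.218 to 0.038 for Hspa4l, −0.04 to 0.009 for Hspa9 and −0.004 to 0.10 for Hsph1.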
